A study of Drosophila melanogaster with 23 samples.

Results

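The genes described here encode the Cpr family of cuticle proteins, and they were taken as every row of the gene table whose FlyBase symbol begins with Cpr and a digit, Lcp, Pcp, Ccp84A or Acp65A, or is Edg78E or Edg84A. Of 98 symbols in the reference that meet this rule, 76 had a row among the 10622 genes of the table, and the other 22, Edg84A among them, were not analysed here. Cpr65Ax1 and Cpr65Ax2 were assigned one and the same transcription start site cluster (TSC, a group of neighbouring transcript 5′ ends), so the 76 members stand for 75 distinct loci and the pair was counted once in every sum.

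Whole Drosophila melanogaster embryos of the strain y; cn bw sp, with no treatment, were collected in 23 successive windows of 1 h from 0-1 h to 22-23 h after egg laying, and each window was profiled as 1 library. The assay, RAMPAGE, sequences the 5′ ends of capped transcripts, so a read count does not scale with transcript length. Values are in RPM, reads scaled to the same total of reads in TSCs for every library. All libraries come from the second biological replicate of the series, so no window had a replicate of its own, and p-values measure scatter around a smooth time course. Libraries held 286206 to 14705005 reads (median 2664024), which sets 1 read at 3.49 RPM in the 5-6 h window and at 0.068 RPM in the 1-2 h window. Intervals on shares and levels cover counting error only and treat each read as independent, which any PCR copies of a molecule are not. In whole embryos, fewer cells of a type and less RNA per cell cannot be told apart. Stage markers followed the labels: the maternal gene osk was highest in the first window, nullo at 2-3 h, sna one window later, the muscle gene Mhc at 20-21 h and the cuticle gene TwdlF at 15-16 h.

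Most members carry the Rebers-Riddiford consensus, a conserved stretch that binds chitin, and are secreted by epidermal and tracheal cells into the apical matrix. The embryo lays down the cuticle of the first larva in layers, first the thin outer envelope and epicuticle and then the chitin-rich procuticle, before it hatches. Many of the genes arose by tandem duplication and sit in clusters, and names such as Lcp (larval), Pcp (pupal), Acp (adult) and Edg (ecdysone-dependent) record the stage or the response in which each gene was first described.

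The family was nearly silent up to 13 h and then rose to 12.3% of all reads in a library. Dividing by the TMM factor of that library gave 20.5%, a rescaled level and not a share of reads. The family's share of all reads lay between 0.00419% (4-5 h) and 0.123% (12-13 h) in the first 13 windows. In the next 4 windows it climbed through 0.53%, 1.5% and 3.6% to 7.31% (16-17 h). From 17-18 h to 21-22 h it stood between 9.53% and 12.3%, with the highest share at 20-21 h (95% Wilson interval 12.28% to 12.33%), and it was 8.31% at 22-23 h (8.22% to 8.40%). Over the whole series the members took 3092348 of 83864003 reads, or 3.69%.

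**Figure D1:**
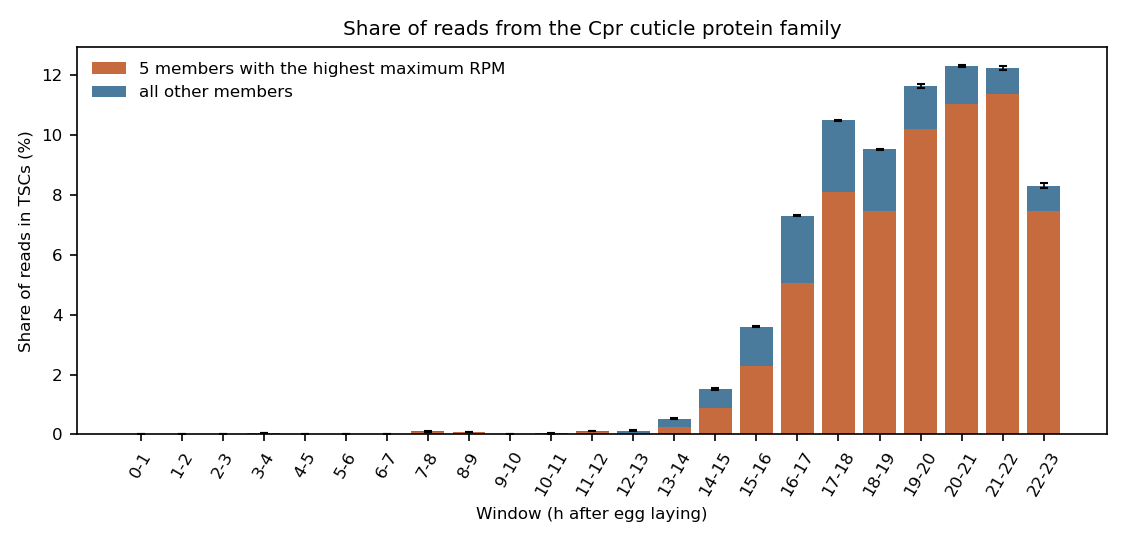
Share of reads in TSCs (%) taken by the family in each 1-h window after egg laying, split into the 5 members with the highest maximum RPM and all other members, with 95% Wilson intervals for the total. The share passes 1% at 14-15 h and is highest, 12.3%, at 20-21 h, and the 5 strongest members make up most of each bar from 14-15 h on.

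A few genes supplied most of this output. Cpr47Eg, Cpr78Cc, Lcp65Ag3, Cpr65Ea and Lcp65Ag2 together took 79.97% of the family's reads, and Cpr78Cc alone took 24.3%. Of the 76 members, 14 reached at least 1000 RPM in some window, 35 reached at least 100 RPM and 53 at least 10 RPM, while 23 stayed below 10 RPM throughout. The member with the most reads changed with time: it was Cpr65Ea in each window from 11-12 h to 16-17 h, Cpr78Cc at 17-18 h and 18-19 h, and Cpr47Eg from 19-20 h on.

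Cpr47Eg reached the highest level of any member. Its main TSC lies on the minus strand of chromosome arm 2R between 7165724 and 7166196 (release 5 coordinates, dm3, as for all positions here). Its values over the 23 windows ran from 3.81 RPM at 4-5 h to 50339 RPM at 21-22 h. From the 13-14 h window on it stood at 282, 1300, 2398, 4131, 15512, 23860, 39892, 41204, 50339 and 39120 RPM. The gene thus climbed in each window up to 21-22 h and stayed high to the end of the series.

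Cpr78Cc (3L, 21293564 to 21293824, plus strand) rose earlier and flattened sooner. From the 13-14 h window on it measured 660, 2859, 5603, 14646, 23555, 27825, 24484, 32966, 26613 and 16325 RPM. Cpr65Ea (3L, 7079619 to 7079844, minus strand) had a short pulse in place of a plateau. Over the same 10 windows it measured 852, 3617, 9948, 18608, 17195, 3124, 1029, 255, 67.7 and 384 RPM. The 3 high windows, from 15-16 h to 17-18 h, were thus followed by a steep decline. Cpr51A (2R, 10402691 to 10402783) had a pulse of the same timing at a lower level, at 734, 1286, 2943, 6167, 3879, 1500, 244, 133, 56.6 and 142 RPM. Cpr64Ad had its highest value, 2211 RPM, in the same window, and Cpr67Fa1 reached 5454 RPM there.

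Members did not reach their highest level together. Among the 53 members that reached 10 RPM, 2 had their highest window before 14 h, 14 between 14 and 17 h, 24 between 17 and 20 h and 13 between 20 and 23 h. Of the 8748 genes of the whole table that reached 10 RPM, the shares with their highest window in these 4 periods were 72.4%, 7.43%, 5.58% and 14.6%. The most common single window was 18-19 h, highest for 14 of the 53. A member held at least 50% of its own maximum for a median of 4 windows, from 1 to 9. For members still high in the last window, such as Cpr47Eg, the end of the series cut this count short.

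**Figure D2:**
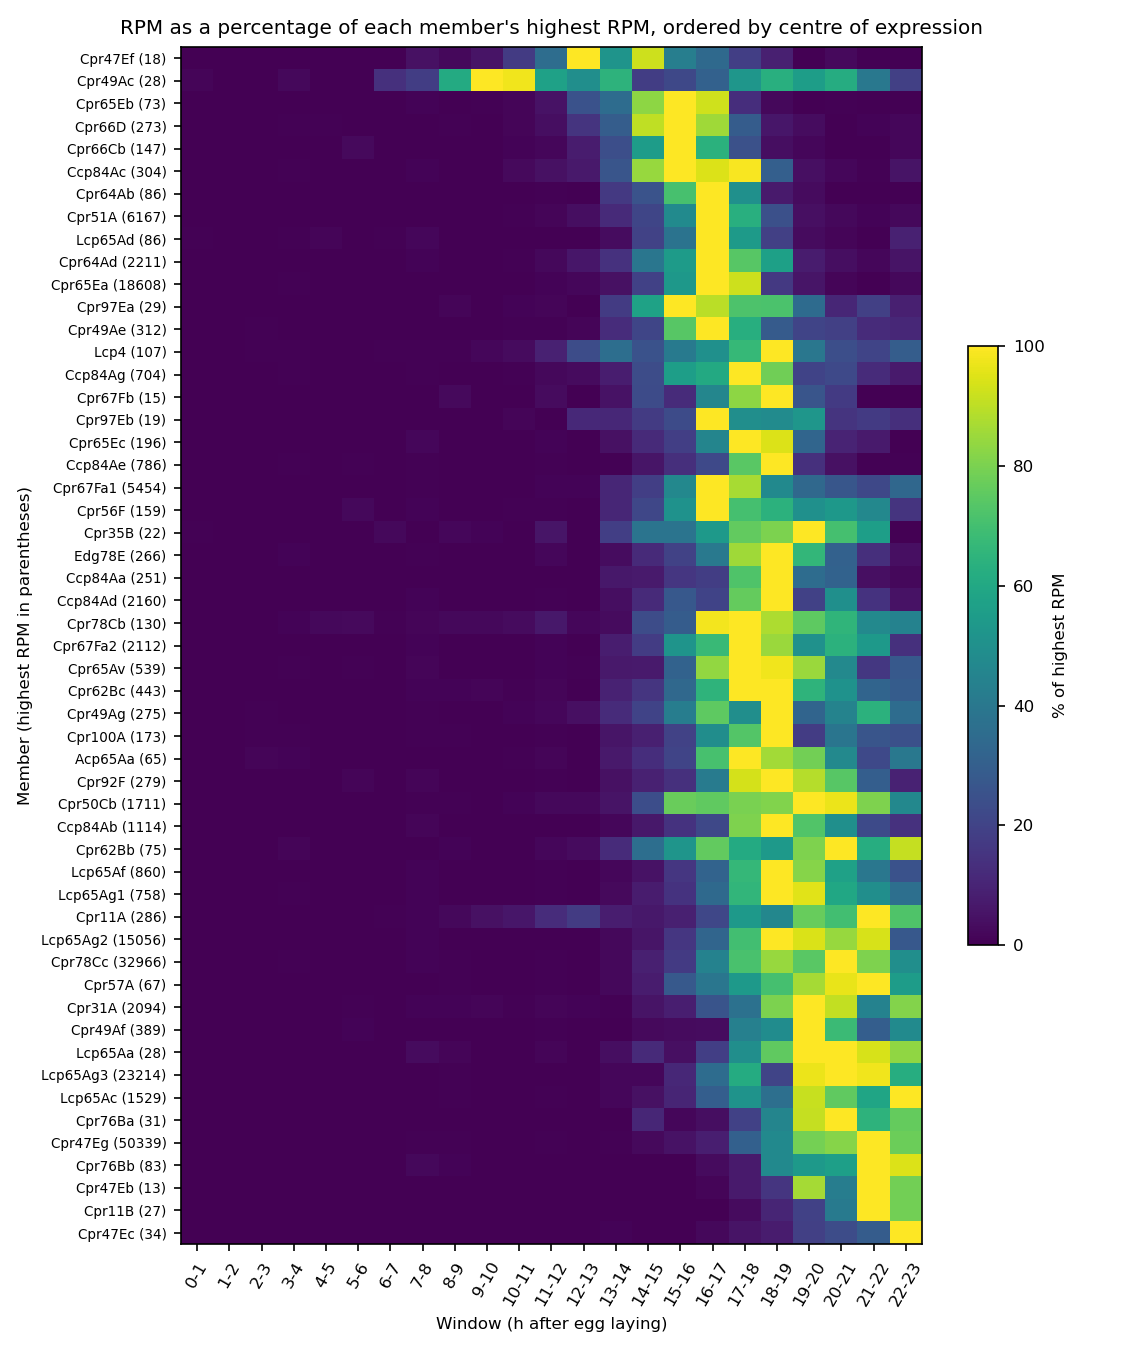
RPM of the 53 members that reached 10 RPM, as a percentage of each member's highest RPM (colour), in the 23 windows after egg laying. Members are ordered by their mean time of expression weighted by RPM, and the highest RPM stands in parentheses; the brightest cells run from 9-10 h for Cpr49Ac and 12-13 h for Cpr47Ef to 22-23 h for Cpr47Ec.

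A gene was classed as developmentally regulated here when it reached 10 RPM and 8 consecutive windows held at least 60% of its summed RPM. By this rule 52 of the 53 members were regulated, against 44.8% of the genes of the whole table that reached 10 RPM. The exception was Cpr49Ac, for which the best 8 windows held 56.7%. Cpr49Ac was also the one member above 10 RPM that had its highest window early and rose again late. It measured 16.9, 27.7 and 27.1 RPM in the windows from 8-9 h to 10-11 h, fell back to 5.05 RPM at 14-15 h, and lay between 14.5 and 17.5 RPM from 17-18 h to 20-21 h. The other early gene above 10 RPM, Cpr47Ef, peaked in the 12-13 h window, where 8 reads gave 18.2 RPM, and it still had 16.8 RPM in the 14-15 h window, so the order of these windows lies within counting error. Below 10 RPM, Cpr78E was the earliest, at 3.29 RPM to 8.92 RPM in the windows from 6-7 h to 12-13 h and at no more than 2.63 RPM from 13-14 h on. Lcp1 and Cpr49Ah, also among the 5 earliest by mean time of expression, never passed 6.74 and 8.42 RPM.

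Time dependence was tested with limma on log2(RPM + 1), with a natural cubic spline of 4 degrees of freedom, for genes with a mean of at least 1 RPM over the windows. Of the 76 members 61 passed this filter, and 60 of the 61 were called time-dependent at a Benjamini-Hochberg adjusted p of 0.05, where 92.2% of all 9538 genes tested were called. With no filter 73 of 76 members were called, against 89.7% of all genes. Among the 15 members below the filter, those with the most reads were Cpr23B, Cpr47Ea and Ccp84Af, and their highest values were 5.93, 5.58 and 5.44 RPM. The share called among members was close to that of all genes, but the fitted range over the time course had a median of 7.42 log2 units among the members tested and of 2.74 over all genes tested.

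To ask which members increase and which decline as the cuticle matures, the fitted value at 21-22 h was compared with that at 16-17 h. By limma 12 members rose (9.76% of all genes tested rose), 21 fell (11.6% of all genes fell) and 28 passed neither way. edgeR's quasi-likelihood test on the recovered read counts called 12 rising, where 7.83% of all genes rose, and 22 falling, where 9.46% fell. With no filter limma called 15 of 76 members rising, where 9.97% of all genes rose, and 25 falling, where 11.4% fell. Both tools called 11 of the rising members and 20 of the falling members. Calls rest on the fitted curve, which can depart from the measured windows. Cpr35B was called falling by limma and not by edgeR, with 11.7 RPM at 16-17 h and 12.2 RPM at 21-22 h. The median fitted difference was -0.67 on the log2 scale among members and -0.09 over all genes tested. With TMM scaling, which moved the median of all genes to -0.22, the members' median was -0.79.

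**Figure D3:**
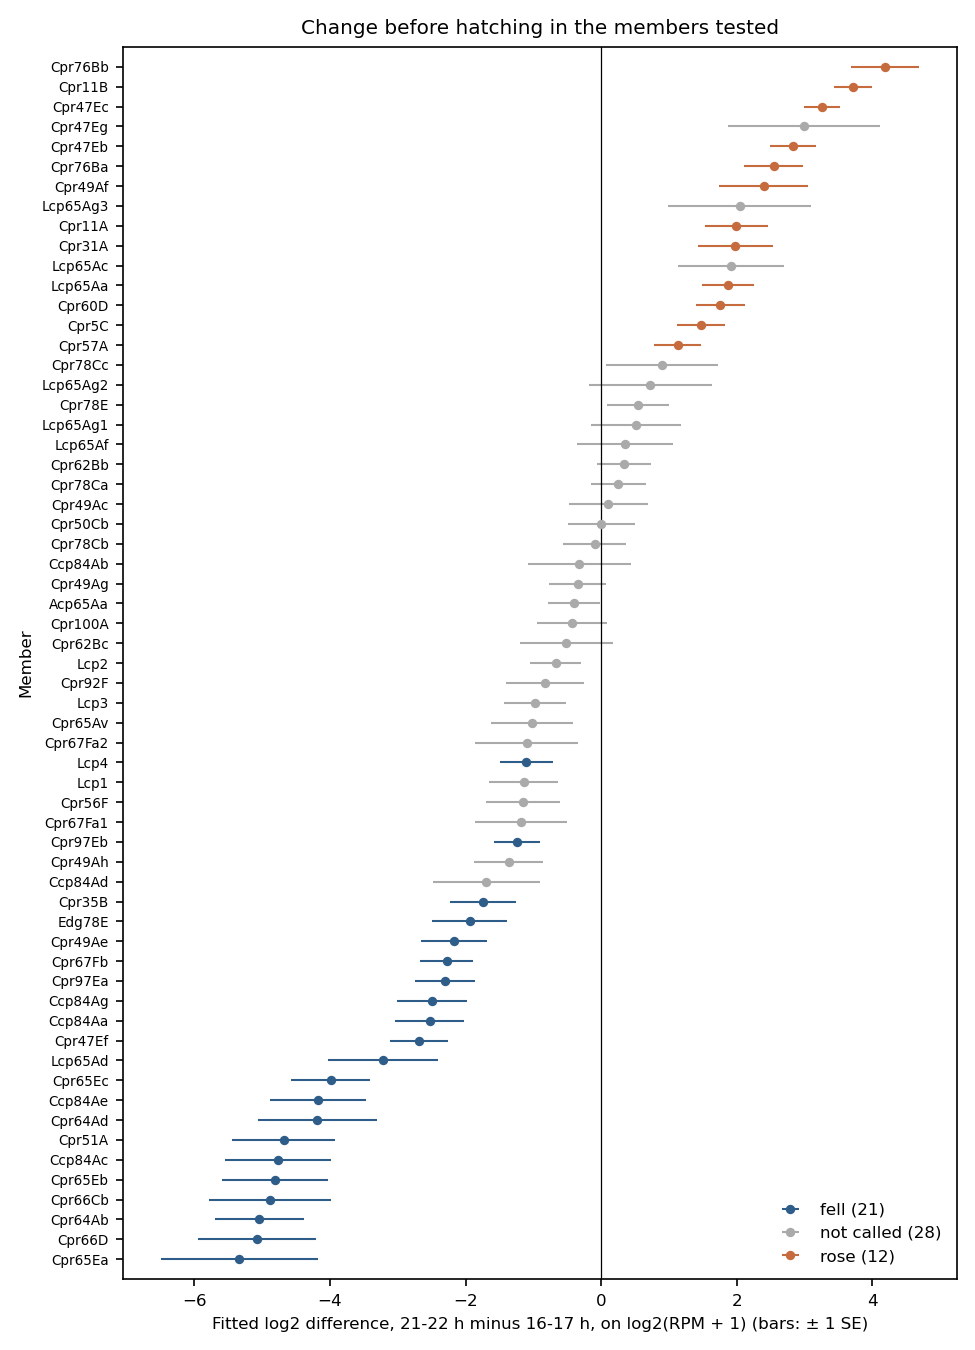
Fitted difference in log2(RPM + 1) between 21-22 h and 16-17 h for the 61 members tested, with bars of 1 standard error from limma, ordered by size. On this scale the 21 members that fell reach -5.33 (Cpr65Ea), the 12 that rose reach 4.18 (Cpr76Bb), and 28 were not called.

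On the log2(RPM + 1) scale, the largest falls were in members whose pulse centred on 14-17 h. Cpr65Ea, whose values are given above, fell by 5.33 on the log2 scale (SE 1.16, limma adjusted p = 0.0018). Under the alternatives other than edgeR its fitted difference ranged from -4.445 to -8.048. Cpr66D (3L, 8633537 to 8633557) measured 248, 273, 235, 79.9, 16.9, 8.98, 1.02, 2.22 and 5.25 RPM from the 14-15 h window on, and fell by 5.08 (SE 0.86). Cpr64Ab measured 85.8, 43.1, 6.17, 2.57 and 0.29 RPM from the 16-17 h window on, was without a read in the last windows, and fell by 5.04 (SE 0.66). The fitted size of a fall that ends at or near 0 reads depends on the pseudocount and the tool: under the alternatives Cpr64Ab ranged from -3.005 to -8.87, and edgeR gave -12.6 for Cpr64Ab and -4.77 for Cpr65Ea, so the order of the falls is that of this scale alone. Each of these 3 was at least 1 order of magnitude lower at 20-21 h than at 16-17 h. Cpr66Cb fell by 4.89 (SE 0.90) after 147 RPM at 15-16 h, and Cpr65Eb fell by 4.81 (SE 0.78) after 73.0 RPM at 15-16 h. Cpr51A fell by 4.68 (SE 0.76). Among the 21, only Cpr65Ea, Cpr51A and Cpr64Ad had reached 1000 RPM, and the median of their highest values was 196 RPM. In 17 of the 21, all of the windows 20-21 h, 21-22 h and 22-23 h were below all of the windows 15-16 h, 16-17 h and 17-18 h. The same windows entered the fit behind the call, so this describes the fallers and is no separate evidence. The share over all genes was not counted.

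Edg78E, a gene known from its response to ecdysone in imaginal discs, belongs to the fallers with the least margin. From the 16-17 h window on it measured 107, 228, 266, 176, 82.8, 35.5 and 10.5 RPM. The fitted difference was -1.94 (SE 0.55, limma adjusted p = 0.012). Its adjusted p was 0.46 without the 22-23 h library, where the difference was -1.02, and 0.31 with a pseudocount of 0.1.

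The rising members were mostly weak genes. The median of their highest values was 32.5 RPM, 9 of the 12 stayed below 100 RPM, and Cpr31A alone reached 1000 RPM. Cpr76Bb (3L, 19512740 to 19512761) measured 2.37, 6.10, 39.4, 44.9, 47.04, 83.2 and 78.8 RPM from the 16-17 h window on. It rose by 4.18 (SE 0.51, limma adjusted p = 6.8e-07). Cpr11B, on the X chromosome, was without a read in every window up to 16-17 h and then measured 0.813, 2.79, 5.13, 10.9, 26.6 and 21.0 RPM. Its fitted difference was 3.72 (SE 0.28), a value that depends on the pseudocount because the starting window is at 0, and DESeq2 gave it an adjusted p of 0.10. Cpr47Ec rose by 3.26 (SE 0.27) and ended at 34.1 RPM, from 13 reads. Cpr47Eb rose by 2.83 (SE 0.34) and Cpr76Ba by 2.54 (SE 0.43), and they never passed 13.3 and 30.9 RPM. Cpr31A (2L, 10054163 to 10054299), the strong gene of this group, measured 545, 779, 1678, 2094, 1898, 927 and 1702 RPM over the same 7 windows, and rose by 1.98 (SE 0.55). Its adjusted p was 0.077 without the 4 libraries with the fewest reads and 0.12 after thinning to the shallowest library. In 10 of the 12 the windows from 20-21 h on were all above the windows 15-16 h to 17-18 h. Here too the windows entered the fit, and the share over all genes was not counted.

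Several of the strongest genes were not called either way. Cpr47Eg had a fitted difference of 2.99 with an SE of 1.12 (limma adjusted p = 0.063). The adjusted p was 0.021 with DESeq2 and 0.037 with a pseudocount of 5, and it was 0.0019 without the 3-4 h, 7-8 h and 8-9 h libraries. Lcp65Ag3 had a difference of 2.04 (SE 1.05, adjusted p = 0.19), which became 1.99 (adjusted p = 0.028) without the same 3 libraries. Cpr78Cc differed by 0.90 (SE 0.82) and Lcp65Ag2 by 0.73 (SE 0.91), both smaller than or close to their standard errors.

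Neighbouring genes did not share one time course. With a gap of at most 50 kb between neighbours, 56 members fell into 12 clusters and 20 stood alone. The 65A cluster on 3L (6124075 to 6151768) was the largest, with 13 members and 26.0% of the family's reads. It holds the tandem Lcp65Ag copies together with Acp65Aa, first described as an adult cuticle gene. Highest windows within it ran from 16-17 h for Lcp65Ad (86.0 RPM) to the last window for Lcp65Ac (1529 RPM). Of its 9 tested members Lcp65Ad fell, Lcp65Aa rose and 7 were not called. Acp65Aa itself measured 46.2, 65.3, 56.3, 51.3, 30.8, 14.4 and 26.3 RPM from the 16-17 h window on.

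The 47E cluster on 2R (7140917 to 7166196) had the widest range of mean times of expression among the clusters, from 13.8 h to 21.4 h. Its members were highest in windows from 12-13 h (Cpr47Ef) to 22-23 h (Cpr47Ec). Cpr47Eg took 99.9% of the reads of this cluster, while its neighbours Cpr47Ef, Cpr47Eb and Cpr47Ec never passed 35 RPM. Of 4 tested members Cpr47Ef fell and Cpr47Eb and Cpr47Ec rose.

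In the 65E and 84A clusters no tested member rose, as was also so in 62B, 64A, 67F, 78C, 97E and Lcp1 to Lcp4. The calls per cluster stand beside 11.6% of all genes falling and 9.76% rising by limma. In 65E (3L, 7079619 to 7086419) all 3 members fell, and they were highest between 15-16 h and 17-18 h at 18608 RPM (Cpr65Ea), 73.0 RPM (Cpr65Eb) and 196 RPM (Cpr65Ec). In 84A (3R, 2512365 to 2529826), the Ccp cluster, all 7 members were highest between 15-16 h and 18-19 h, 4 of 6 tested fell and none rose, also at an unadjusted p of 0.05 by limma or by edgeR. Ccp84Ad, the strongest of them, reached 2160 RPM at 18-19 h and then measured 420, 1075, 314 and 105 RPM, so that the 19-20 h library lay below both its neighbours. In 76B (3L, 19511382 to 19512761) both members rose. In 97E both members fell, and in 64A both tested members fell. The 4 genes Lcp1 to Lcp4, named as larval cuticle proteins, were weak in the embryo: Lcp4 reached 107 RPM at 18-19 h and the other 3 stayed below 10 RPM. Pcp, named as a pupal cuticle gene, had 15 reads in all and a highest value of 2.63 RPM, which is 1 read.

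**Figure D4:**
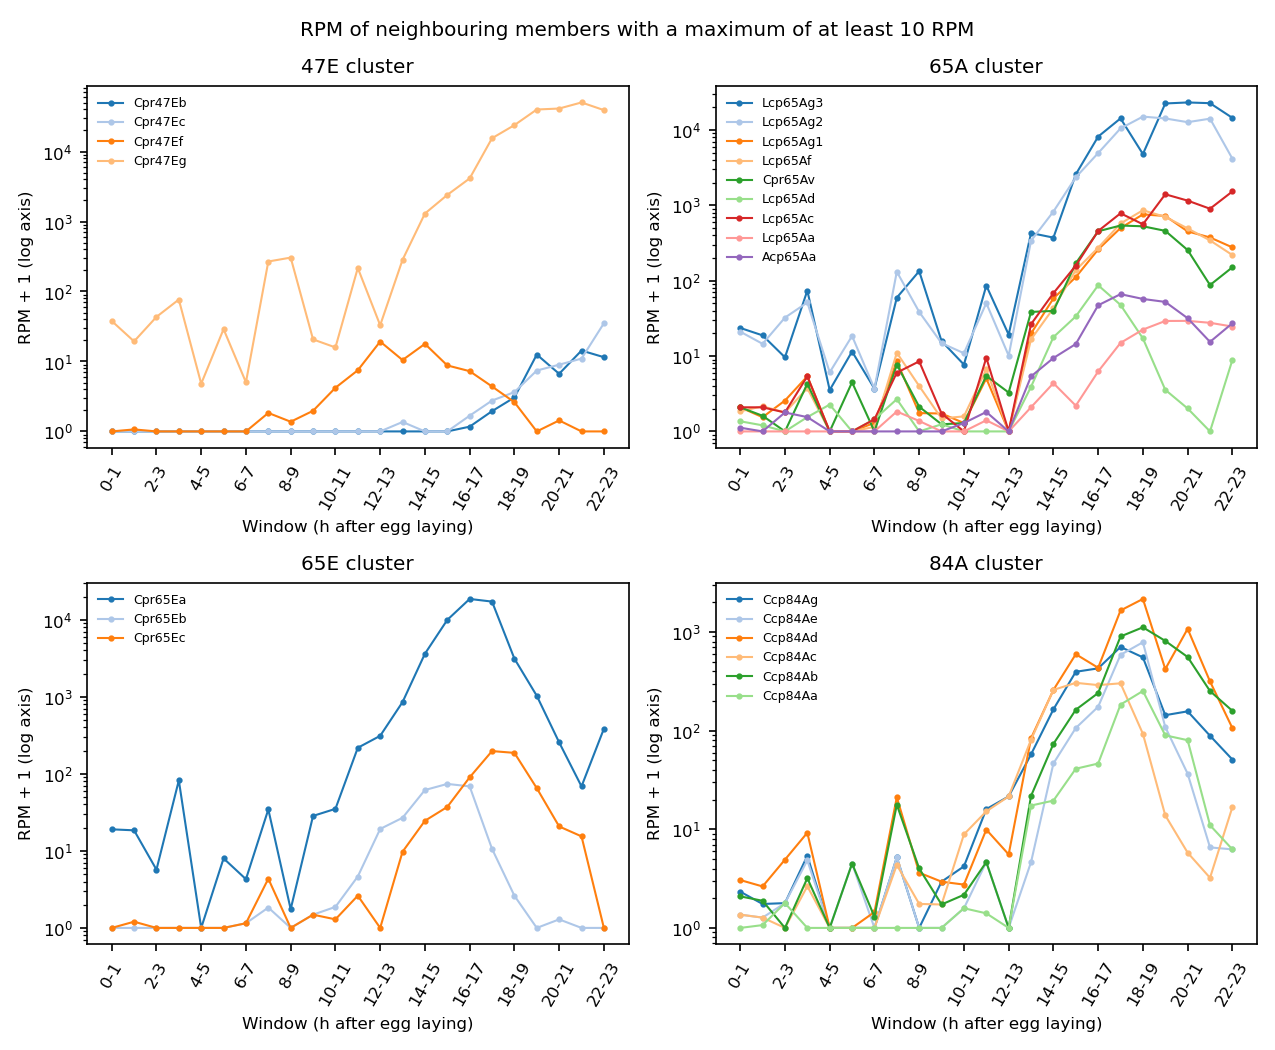
RPM + 1 on a log axis in each window after egg laying for the members of 4 genomic clusters that reached 10 RPM, with 1 line per gene. Levels within 47E differ by more than 3 orders of magnitude, the 65E genes are all lower at 20-21 h than at 17-18 h, and the 84A genes are highest by 18-19 h.

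Near-identical copies were compared within each library, where depth cancels. How reads that match several copies were divided is not given in the sources used here, so the split between copies is uncertain. Cpr67Fa1 held 79.3% of the reads of Cpr67Fa1 and Cpr67Fa2 at 16-17 h (95% Wilson interval 78.9% to 79.6%) and 50.7% at 21-22 h (48.5% to 52.8%). In the last window, with 696 reads of the first copy and 111 of the second, it held 86.2%. Lcp65Ag3 held 57.6% of the reads of Lcp65Ag3 and Lcp65Ag2 in the 17-18 h library, 24.2% in the next one (23.9% to 24.4%) and 61.2% in the one after. The low share came with a low level of one copy only: Lcp65Ag3 measured 14257, 4797 and 22496 RPM in these 3 windows, while Lcp65Ag2 measured 10500, 15056 and 14232 RPM. Lcp65Ag2 outnumbered Lcp65Ag1 in every window from 13-14 h on, by a ratio of reads between 14.4 (14-15 h) and 37.8 (21-22 h).

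**Figure D5:**
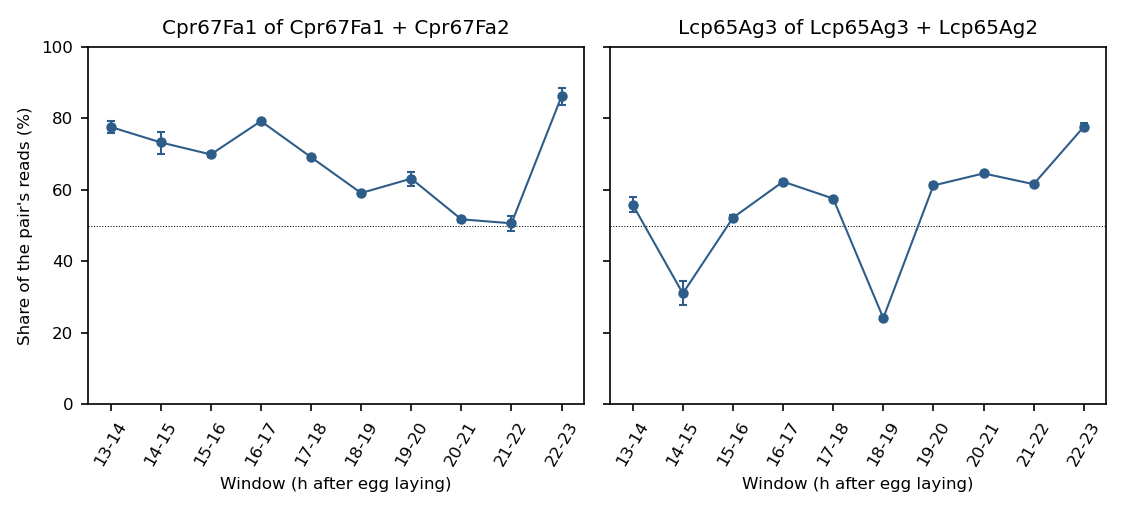
Share (%) of the reads of a pair of neighbouring copies that belong to the first copy, in windows from 13-14 h to 22-23 h after egg laying, with 95% Wilson intervals. Cpr67Fa1 declines from 79.3% at 16-17 h to 50.7% at 21-22 h, and Lcp65Ag3 dips to 24.2% at 18-19 h.

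Nearly every member used 1 promoter. The 76 members had 94 distinct TSCs in all, 62 members had a single TSC, and in only 2 of the 14 others did a second TSC hold at least 10% of the gene's reads. These were Cpr78Ca, with 22.4% in a TSC 180 bp from the main one, and Cpr62Ba, with 50.0% in each of its TSCs from 42 reads. Main TSCs were wider in stronger genes, with a median of 107 bp among members that reached 1000 RPM, 7 bp among those below 10 RPM and 473 bp in Cpr47Eg. Width and number of reads moved together across members, and the part of depth in the width was not tested. There were 6 TSCs at least 30 kb from the main TSC of the gene they were assigned to, among them 1 of Cpr65Ea at a distance of 264076 bp. Each was at most 7 bp wide and held at most 0.227% of the gene's reads.

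Reads of late members were also present before cuticle formation, and they did not rise smoothly. At 0-1 h each of the 8 members with the most reads had 3.65 to 6.24 reads per 10000 reads that it had in the other windows together. The family's share was 0.0526% in the 3-4 h library, between 0.0173% and 0.00419% in its neighbours. It was 0.1004% and 0.0768% in the 7-8 h and 8-9 h libraries, between 0.00537% and 0.0241% in theirs. Cpr47Eg measured 4.04, 267, 304 and 19.7 RPM in the 4 windows from 6-7 h on. All windows were barcoded, pooled and sequenced in one lane. Where these early reads stem from was not tested. Without the 3-4 h, 7-8 h and 8-9 h libraries, 60 members were time-dependent, 15 rose and 21 fell, and with windows from 10 h on alone the counts were 59, 11 and 19.

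Genes that make, organise or break down chitin were mostly past their highest level in the last windows. The list of chitin synthesis and assembly also holds chitinase genes. Of 18 tested genes of chitin synthesis and assembly none rose by limma (3 at an unadjusted p of 0.05) or by edgeR, and 10 fell by limma and by edgeR, where 11.6% and 9.46% of all genes fell. The median difference was -1.43 against -0.09 over all genes tested. The highest window lay at 14-17 h for 11 of the 18, against 7.43% of all genes that reached 10 RPM. Gasp, a chitin-binding protein of the tracheal matrix, had 34260 RPM in the 16-17 h library and 1695 RPM in the 21-22 h library and fell by 3.28 (SE 0.63). The chitin deacetylase gene serp fell by 1.92 (SE 0.41) and its paralogue verm fell by 1.95 (SE 0.39). The chitin synthase gene kkv was not called (-0.46, SE 0.40). Positive differences, none of them called, were those of Cht5, Cht10, rtv, Cht2, Gfat2 and reb. The largest was that of the chitinase gene Cht5 (1.77, SE 0.77), which was highest at 19-20 h. Of 7 tested genes of cuticle tanning, yellow-f rose and yellow-e fell by limma, where 9.76% of all genes rose and 11.6% fell, so these counts are near the background. Of 13 tested ecdysone-response and epidermal regulators none rose by limma (1 at an unadjusted p of 0.05) or by edgeR, while 7 fell by limma and 6 by edgeR, beside the same 11.6% and 9.46% of all genes. One of them was ftz-f1, a nuclear receptor induced after ecdysone pulses, which was highest at 15-16 h with 349 RPM and fell by 2.04 (SE 0.41). Eip75B, an early ecdysone-response gene, had 30.8 RPM in the 16-17 h library and 425 RPM in the 21-22 h library, and its difference of 2.49 (SE 0.96, adjusted p = 0.071) was not called.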

How the data were processed

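The authors collected staged embryos, made RAMPAGE libraries barcoded in reverse transcription and sequenced them as 1 pool. Reads were aligned with STAR (version not given in the sources used here) to dm3 with FlyBase annotation 5.49, and TSCs were called on the pooled series. The deposited tables hold RPM per TSC and per gene, a gene being the sum of its TSCs, and the deposited TSC list gives positions as other values (coordinates). Every RPM value was a whole multiple of 1 read (100% within a tolerance of 0.02), so reads and library totals were recovered. TSCs assigned to no gene (0.337% to 0.806% of reads) were left out of gene tests. Symbols came from a reference name table (96.5% of identifiers matched), and no release 5 genome or sequence was used here.

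Genes with a mean of at least 1 RPM entered limma 3.58.1 (trend, robust) on log2(RPM + 1), with edgeR 4.0.16 and DESeq2 1.42.0 on recovered reads as alternatives, in R 4.3.3. The counts of members called are given from limma and from edgeR, and cluster counts are from limma. Members and gene lists were chosen with earlier results of these data known. Named genes were the 10 with the highest maximum, the 5 earliest and the 5 latest by centre, the 5 largest called changes each way, members with a second TSC, Edg78E, Acp65Aa and Pcp, and the 3 members below the filter with the most reads; others were named after their values were seen. Other alternatives were the pseudocount, the filter, scaling, spline, thinning and leaving out libraries. A table of aligned scores was not used.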

Additional observations from a re-analysis of the deposited data

How the results depend on the processing

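Alternatives were tried for the pseudocount, the filter, the scaling, the spline, the tool and the libraries. The largest change came from edgeR's filterByExpr without groups, which only 5 members passed, so its counts are out of 5. By limma 5 were time-dependent, 0 rose (1 at an unadjusted p of 0.05) and 1 fell. With the main filter edgeR called 12 rising. Leaving out each window in turn gave 58 to 61 time-dependent members, 10 to 13 rising and 19 to 22 falling. A pseudocount of 0.1 gave 8 rising and 16 falling, and thinning gave 9 and 15. Members highest before 14 h numbered 1 with TMM scaling and 7 after thinning to the shallowest library, against 3 of all 76. The highest share of reads from the family was 12.39% after thinning. Its highest level rescaled by the TMM factor was 20.5%, and both were in the 20-21 h window. Among the named genes 938 values kept their call, 21 passed the threshold under an alternative alone and 8 lost it. Among these genes, which are those of the naming rule, no difference called in either fit changed sign. Cpr35B lies outside that rule, and its called fall did change sign. Its difference, -1.74 in the main fit, ranged from -3.275 to 0.060 under the alternatives other than edgeR. Uncalled differences could also change sign: Cpr78E, at 0.55, ranged from -0.50 to 0.93 under the same alternatives. Cpr49Ah (-1.36) passed in 8 alternatives, among them edgeR (-4.48). The alternatives without the 3-4 h, 7-8 h and 8-9 h libraries, and with windows from 10 h on, were chosen after seeing the data. No paired analysis was possible because each window has 1 library. Depth limits the 23 members below 10 RPM most, since 1 read was 2.63 RPM at 22-23 h.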

Other observations

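A few TSCs with no assigned gene lay within a few kilobases of members. The one with the most reads lay on the strand opposite to Cpr65Eb, 1981 bp from its main TSC (3L, 7083863 to 7083878), with 93 reads in all and a highest value of 5.42 RPM at 16-17 h. Another, of 37 reads, lay on the strand opposite to Cpr47Eg (2R, 7165500 to 7165507) and was highest at 22-23 h with 10.5 RPM, which is 4 reads. None of the 9 pairings of a member with such a TSC exceeded 93 reads.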
